A study of Rattus norvegicus with 30 samples.

Results

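Catalase and 9 other enzymes of hydrogen peroxide handling were followed as a set of 10 genes (Cat, Sod1, Sod2, Gpx1, Gpx4, Prdx1, Prdx3, Prdx5, Txn2 and Gsr). They were taken by name, with earlier results of these data known, and the rule sets no threshold on their signals. They were compared by the compartment of the cell in which each protein works. Of the 31042 probe sets of the array, the groups of short oligonucleotides that each read a transcript, 10 were annotated to one of these genes alone. These 10 stood for 9 of the 14217 genes named by a probe set of their own, because the probe set of Prdx1 also read the near-identical Prdx1l1 and was kept apart. All 10 passed the filter on dim signals, which 18625 probe sets passed in all. RNA came from primary hepatocytes of male Sprague Dawley rats, thawed from a frozen commercial stock, plated on collagen and covered with Matrigel. Every culture was dosed on day 3, either with diisononyl phthalate (DINP), a phthalate plasticiser, or with the DMSO vehicle alone at 1%. DINP was given at 25 or 100 mM, a unit written here as the labels give it and which could not be checked, and RNA was taken at 24 or 48 h. The 6 groups (vehicle, 25 mM and 100 mM at each time) held 5 arrays each, and the labels describe the 5 wells of a group as independent cultures. Which animals the cells came from is not stated, so each p-value measures the spread between wells. Fewer cells of a type and less RNA per cell cannot be told apart in such cultures.

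Hydrogen peroxide is made by oxidases, many of them in the peroxisome, and by superoxide dismutases, which turn superoxide into oxygen and peroxide. Catalase splits peroxide inside the peroxisome, while glutathione peroxidases and peroxiredoxins reduce it in the cytosol and mitochondria with electrons from glutathione and thioredoxin. In rodent liver, phthalates act as peroxisome proliferators through the nuclear receptor PPAR-alpha, which induces fatty acid oxidation enzymes and their peroxide-forming oxidases, and catalase is a classic marker enzyme of the peroxisome. The set therefore holds both enzymes that remove peroxide and, with Sod1 and Sod2, enzymes that make it from superoxide.

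All 9 genes had higher mean signal in dosed than in vehicle cultures at both doses and both times, but by little. The differences ran from 0.04 (Sod1, 25 mM at 24 h) to 0.36 (Txn2, 25 mM at 48 h) on the log2 scale, or folds of 1.03 to 1.29. With limma, at an adjusted p of 0.05 over all 18625 probe sets, 5 of 9 genes rose at 25 mM and 24 h, where 5.85% of all probe sets were called higher. At 100 mM and 24 h 5 of 9 rose, against 5.55% of all probe sets. At 48 h, 7 of 9 rose at 25 mM and 8 of 9 at 100 mM, against 7.41% and 6.49% of all probe sets. No gene of the set fell in any of these 4 comparisons, where 7.49%, 6.74%, 10.5% and 8.07% of all probe sets were called lower. Txn2, Prdx3, Gpx1 and Gpx4 rose in all 4 comparisons, Prdx5 in 3, Cat and Sod2 in 2, and Gsr and Sod1 in 1 each. The 2 doses of a time share their vehicle arrays, so the comparisons are not independent. Because the set was chosen with earlier results of these data known, its counts beside the background are descriptive only.

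The background for bright genes was higher. All probe sets of the set but the second one of Gpx4 were bright on this array, with a mean log2 signal of 13 or more. Among the 1884 probe sets at least that bright, 23.1%, 23.8%, 28% and 29.8% were called higher in the 4 comparisons, in the order 25 and 100 mM at 24 h, then 25 and 100 mM at 48 h. The median log2 difference of these bright probe sets was 0.06, 0.07, 0.04 and 0.08, whereas that of all 18625 was -0.05, -0.05, -0.03 and -0.07. The medians of the 9 genes were 0.17, 0.21, 0.21 and 0.26, above both. Bright probe sets in general also lay more often above than below 0, with 58.8% to 66.0% of them above in the 4 comparisons.

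**Figure D1:**
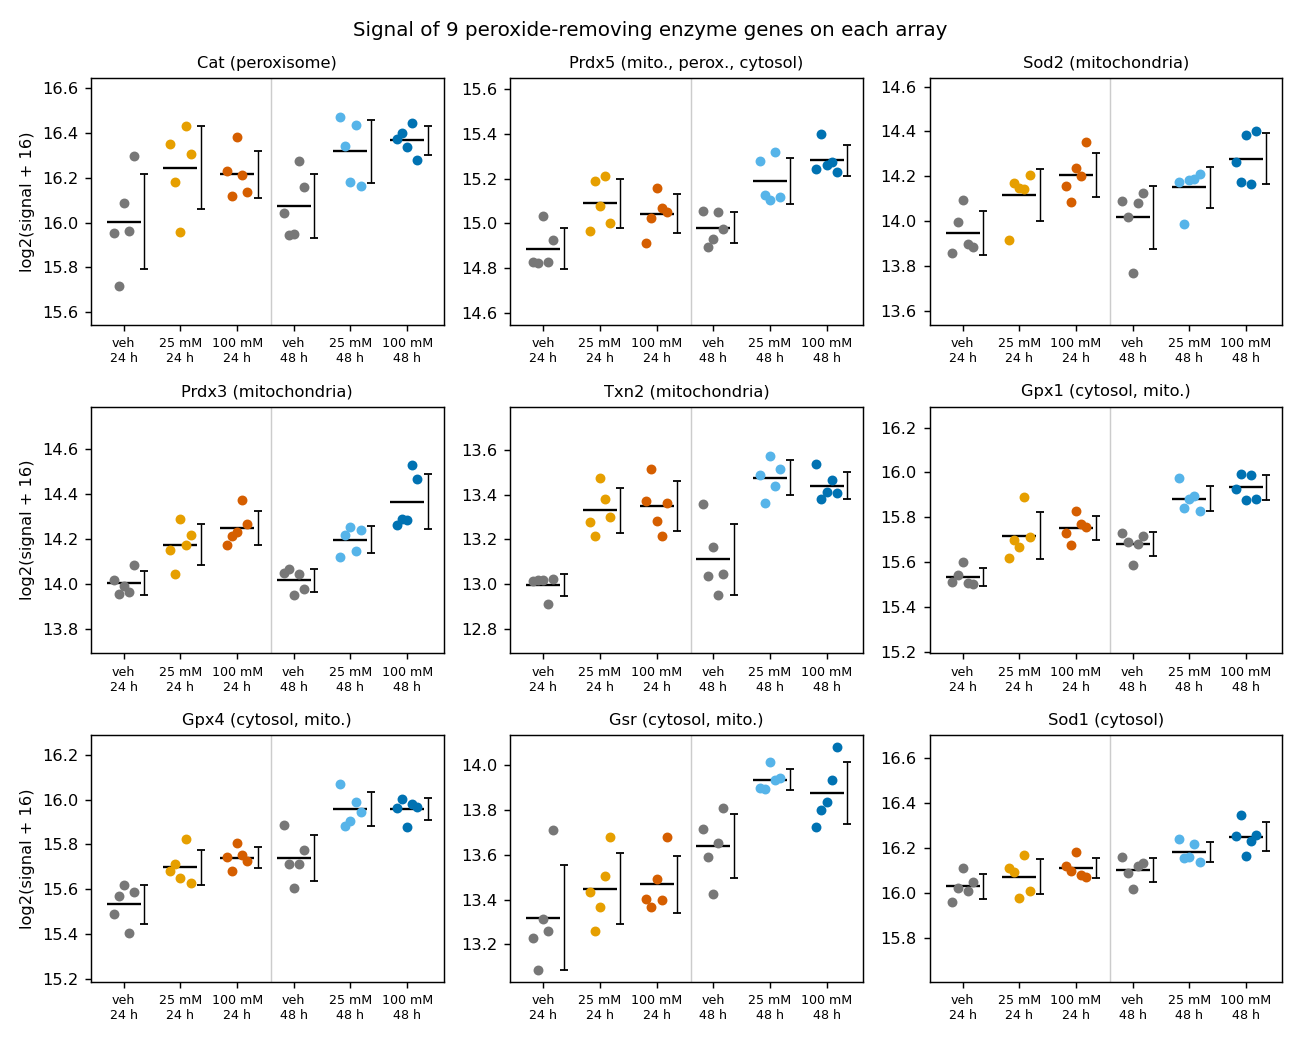
Signal of the 9 enzyme genes on each of the 30 arrays, as log2(signal + 16) on the vertical axis, by dose and time. Points are arrays, horizontal lines are means of 5 arrays and brackets beside them span the mean ± 1 SD. Each panel spans the same range on its axis, and Txn2 and Gpx1 show every dosed array above the vehicle arrays of its time.

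The cultures carried the signals of hepatocytes. Of the 6 hepatocyte markers, Alb, Ttr, Apoa1 and Cps1 had mean log2 signals of 16.5 to 16.7 and were not called in any comparison with vehicle, while Tat, an amino acid catabolic enzyme, fell by 0.80 to 0.92. Hnf4a, a hepatocyte transcription factor, rose by 0.25 at 25 mM and 48 h and was not called in the other comparisons with vehicle. The defining markers of Kupffer, stellate, endothelial and lymphoid cells lay between mean log2 signals of 5.9 and 10.3, and Krt7 of bile duct cells at 5.2. The summed signal of the Kupffer markers ran from 2359 to 4209 and that of the endothelial markers from 1240 to 2229 over the 30 arrays, with overlap between dosed and vehicle arrays of each time. At 48 h the summed stellate markers lay lower at 100 mM (2687 to 3130) than in vehicle (3131 to 3776), apart by the barest margin. The summed bile duct markers of that time lay lower at 25 mM (8810 to 11710) than in vehicle (11850 to 14310), without overlap. Epcam, an epithelial surface protein that is not restricted to bile duct cells, made up most of that bile duct sum. Its mean log2 signal was 13.3, against 8.1 for Krt19, 6.0 for Spp1 and 5.2 for Krt7. Epcam fell by 0.35 and 0.22 at 48 h. Krt19 had means at 48 h of 8.31 in vehicle, 8.07 at 25 mM and 8.63 at 100 mM. Acta2 of stellate cells fell by 0.52 at 100 mM and 48 h, and Hbb of red cells rose by 1.73 at 100 mM and 24 h from a vehicle mean below the dimmest tested level. The part of these markers in the results below was not tested.

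Catalase, the peroxisomal enzyme that splits hydrogen peroxide into water and oxygen, had log2 signals of 15.96, 15.72, 16.09, 15.96 and 16.30 in the 5 vehicle arrays at 24 h. At that time they were 16.35, 16.18, 15.96, 16.43 and 16.31 at 25 mM, and 16.23, 16.12, 16.38, 16.21 and 16.14 at 100 mM. One vehicle array was as high as the dosed ones and one array at 25 mM was as low as the vehicle arrays, so the groups overlapped. At 48 h the vehicle arrays read 16.04, 15.94, 15.95, 16.27 and 16.16. The arrays at 25 mM read 16.47, 16.34, 16.18, 16.44 and 16.16, and those at 100 mM 16.38, 16.40, 16.34, 16.45 and 16.28. At 48 h every array at 100 mM lay above every vehicle array, whereas 2 arrays at 25 mM lay within the vehicle range. Non-overlap of this kind, with the dosed arrays above, held for 4.76%, 4.94%, 4.81% and 4.81% of all probe sets in the 4 comparisons. On the linear scale, catalase signal was 66294 ± 9755 (SD, n = 5) in vehicle, 78183 ± 9577 at 25 mM and 76304 ± 5652 at 100 mM at 24 h. The corresponding values at 48 h were 69244 ± 6917, 82008 ± 8042 and 84625 ± 3713.

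Catalase rose at 48 h, by 0.24 ± 0.09 (SE) at 25 mM (adjusted p = 0.0462) and by 0.29 ± 0.09 at 100 mM (adjusted p = 0.0177), folds of 1.18 and 1.23. At 24 h the differences were 0.24 ± 0.09 (adjusted p = 0.0607) and 0.21 ± 0.09 (adjusted p = 0.111), which did not pass. Their 95% intervals were 0.07 to 0.42 and 0.04 to 0.39, which overlap nearly all of the intervals at 48 h (0.07 to 0.42 and 0.12 to 0.47). The difference of the catalase effect between 48 and 24 h was 0.00 at 25 mM and 0.08 at 100 mM, and neither passed. The calls at 48 h did not always hold with 1 array fewer. Leaving out 1 array at a time ended the call at 25 mM in 6 of 10 cases, with differences from 0.21 to 0.29. The call at 100 mM was lost without vehicle replicate 2 (0.26, adjusted p = 0.057) or 3 (0.26, adjusted p = 0.0564). Conversely, without vehicle replicate 5 the difference at 24 h passed at 25 mM (0.31) and at 100 mM (0.29), and without the third array at 25 mM it passed there too (0.31). When the signal distributions of the arrays were made equal by quantile normalisation, the 48 h differences were 0.16 (adjusted p = 0.114) and 0.17 (adjusted p = 0.126), and neither passed.

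The promoters of 3 genes are shown because the calls of Cat, Prdx3 and Txn2 differed. Cat was called at 48 h and not at 24 h, and Prdx3 in all comparisons with vehicle. Txn2 was called in all of these under every alternative analysis run. Only the calls differ in this way, since at 25 mM the catalase difference was 0.24 at both times. Each promoter is the 250 bases before the RefSeq transcription start in build GRCr8, read 5′ to 3′ on the gene's strand, which is the minus strand for all of them. Capitals mark CCAAT (or its complement ATTGG) and AGGTCA (or its complement TGACCT), the hexamer that nuclear receptors of the PPAR type bind in pairs. Cat lies at chr3:110329527-110329776, Prdx3 at chr1:270000112-270000361 and Txn2 at chr7:111390941-111391190.
Cat: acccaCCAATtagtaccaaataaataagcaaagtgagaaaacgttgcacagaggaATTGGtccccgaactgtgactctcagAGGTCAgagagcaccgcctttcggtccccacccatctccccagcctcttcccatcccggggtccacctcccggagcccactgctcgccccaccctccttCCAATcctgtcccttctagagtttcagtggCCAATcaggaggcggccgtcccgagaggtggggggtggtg
Prdx3: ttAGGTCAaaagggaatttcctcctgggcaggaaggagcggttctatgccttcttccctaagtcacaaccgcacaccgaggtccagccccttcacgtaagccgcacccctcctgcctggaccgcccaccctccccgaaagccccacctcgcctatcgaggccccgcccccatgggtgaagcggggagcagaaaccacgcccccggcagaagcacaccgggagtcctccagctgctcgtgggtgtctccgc
Txn2: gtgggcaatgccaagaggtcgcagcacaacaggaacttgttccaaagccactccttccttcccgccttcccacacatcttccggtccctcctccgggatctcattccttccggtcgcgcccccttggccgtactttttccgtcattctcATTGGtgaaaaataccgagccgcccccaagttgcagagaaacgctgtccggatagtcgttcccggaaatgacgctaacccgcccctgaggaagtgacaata
The Cat sequence held CCAAT in either orientation 4 times, beginning 245, 195, 70 and 40 bases before the start, and AGGTCA once, at 169 bases. Prdx3 held AGGTCA at 248 bases, and Txn2 held one ATTGG at 101 bases and no AGGTCA. Both strands were searched in 11 promoter sequences of 9 of the 10 listed genes, 3 of them for start sites of Gpx4. Gsr was not analysed here. AGGTCA was found for Cat, Gpx4 and Prdx3, and is in 14.1% of all 33469 promoters of the same length. The full DR1 element, a direct repeat of that hexamer spaced by 1 base, was in none of the 11 and in 0.0508% of all. CCAAT was found for Cat, Gpx4, Sod1 and Txn2 (34% of all promoters), and GGGCGG for 8 genes (30.5% of all), but not for Cat. The antioxidant response core TGACNNNGC was found for Prdx1 and Sod2 (10.1% of all). A match describes the letters only.

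Catalase moved much less than a peroxisomal enzyme of fatty acid oxidation measured on the same arrays. Ehhadh, the bifunctional enzyme of peroxisomal beta-oxidation and a PPAR-alpha target, read 10.51, 10.23, 10.59, 10.45 and 10.87 in vehicle at 24 h. At 25 mM it read 13.43, 13.56, 13.64, 13.56 and 13.69, all far above the vehicle arrays. Its differences were 3.05, 2.75, 2.81 and 2.65 in the 4 comparisons, each ± 0.10 (SE), or folds of 6.27 to 8.26. The catalase difference minus that of Ehhadh was -2.80, -2.54, -2.57 and -2.35 on the log2 scale, with SEs of 0.11 to 0.12. In each case the exact two-sided permutation test over 5 against 5 arrays gave p = 0.0079, the smallest it can give. Adjusted over the 36 such tests made, this is 0.0714, so the design could not pass the threshold here although the 2 sets of arrays were fully separated. Ehhadh lay at percentile 99.99 of all differences in each comparison, so its choice made this separation all but certain.

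**Figure D2:**
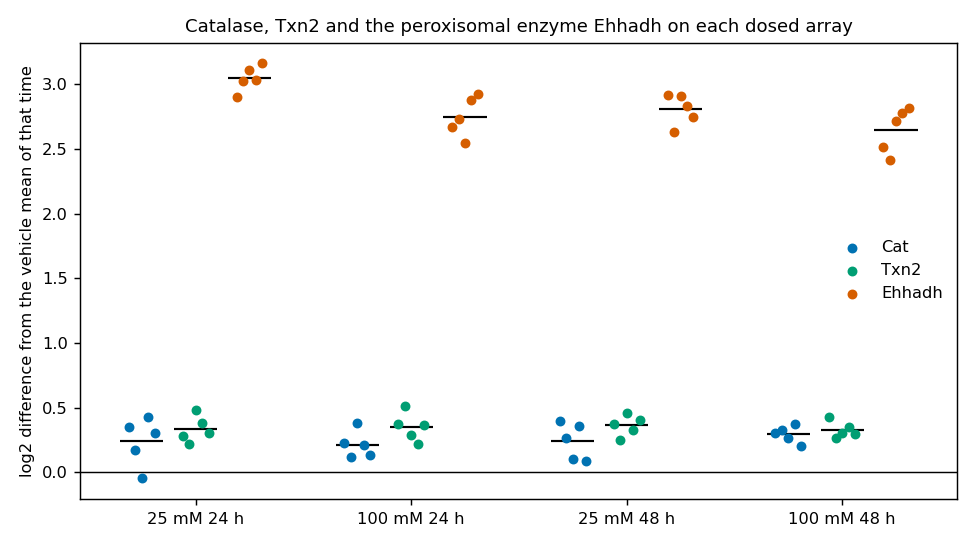
Log2 difference of each dosed array from the vehicle mean of its time (vertical axis) for Cat, Txn2 and Ehhadh at 2 doses and 2 times. Points are arrays and bars are means of 5; Cat and Txn2 lie near or below 0.5 and Ehhadh far above both in every group.

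The catalase difference lay within the range of those of the other members in each comparison. The gap between its change and that of each of the other 8 genes passed in 0 of 32 exact permutation tests, with adjusted p from 0.4 to 0.96. These tests could hardly pass, since even the smallest possible p of 0.0079 became 0.0714 for Ehhadh after adjustment. The 0 of 32 therefore does not show that the changes were equal. The largest gaps were to cytosolic Sod1, where catalase changed by 0.20 ± 0.11, 0.13 ± 0.09, 0.17 ± 0.07 and 0.15 ± 0.07 (SE) more, with exact p from 0.0556 to 0.214. In the other direction, the catalase change minus that of Txn2 was -0.14 ± 0.13 at 100 mM and 24 h (exact p = 0.302). With SEs of 0.06 to 0.15, gaps of this size could not be resolved.

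Prdx5 is a peroxiredoxin found in mitochondria, peroxisomes and cytosol, and so shares the peroxisome with catalase. It read 15.05, 14.90, 14.93, 15.05 and 14.97 in vehicle at 48 h, against 15.24, 15.40, 15.26, 15.27 and 15.23 at 100 mM. All 5 arrays at 100 mM were above the vehicle arrays, as were all at 25 mM (15.10 to 15.32). Prdx5 rose by 0.20 ± 0.06 at 25 mM and 24 h (adjusted p = 0.0133), by 0.21 ± 0.06 at 25 mM and 48 h (adjusted p = 0.00843) and by 0.30 ± 0.06 at 100 mM and 48 h (adjusted p = 0.00023). The difference of 0.16 ± 0.06 at 100 mM and 24 h did not pass (adjusted p = 0.0659). Quantile normalisation ended the calls at 25 mM, leaving 0.12 at either time (adjusted p = 0.068 and 0.0596), and kept that at 100 mM and 48 h at 0.20.

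The 3 mitochondrial members included the strongest call of the set. Txn2, the mitochondrial thioredoxin that feeds electrons to Prdx3 and Prdx5, read 13.01, 13.02, 13.02, 12.91 and 13.02 in vehicle at 24 h. At 25 mM it read 13.28, 13.21, 13.48, 13.38 and 13.30, and at 100 mM 13.37, 13.51, 13.28, 13.21 and 13.36, with no overlap. At 48 h the vehicle arrays read 13.36, 13.04, 13.16, 12.95 and 13.05. The arrays at 25 mM read 13.49, 13.36, 13.57, 13.44 and 13.51 and those at 100 mM 13.54, 13.38, 13.41, 13.46 and 13.41. The groups again did not overlap, although the highest vehicle array and the lowest at 25 mM both round to 13.36. Txn2 rose by 0.33, 0.35, 0.36 and 0.33, each ± 0.06, with adjusted p of 0.000308, 0.000173, 7.25e-05 and 0.000346. The difference of Txn2 between 100 and 25 mM was 0.02 ± 0.06 at 24 h and -0.03 ± 0.06 at 48 h, with 95% intervals of -0.11 to 0.15 and -0.17 to 0.10.

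Prdx3, the mitochondrial peroxiredoxin that reduces most peroxide in the matrix, read 14.05, 14.07, 13.95, 14.04 and 13.97 in vehicle at 48 h. It read 14.12, 14.22, 14.26, 14.15 and 14.24 at 25 mM and 14.26, 14.29, 14.29, 14.53 and 14.47 at 100 mM. The 3 groups did not overlap, although the highest array at 25 mM and the lowest at 100 mM both round to 14.26. Prdx3 rose by 0.17, 0.25, 0.18 and 0.35 (each ± 0.05), with adjusted p of 0.0249, 0.00121, 0.0149 and 9.42e-06. The rise of 0.35 at 100 mM and 48 h, 1.28-fold, had the smallest adjusted p of the set. Prdx3 was also the 1 member whose arrays at 100 mM all lay above those at 25 mM at 48 h. That difference of 0.17 ± 0.05 did not pass the adjustment over all probe sets (adjusted p = 0.491). Non-overlap between the doses was not counted over all probe sets, so how unusual it is cannot be judged. Its calls at 25 mM were lost under quantile normalisation, to 0.11 at either time, and the call at 24 h was lost in 4 of 10 analyses without 1 array.

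Sod2, the manganese superoxide dismutase of the mitochondrial matrix, makes peroxide rather than removing it. It read 14.09, 14.02, 13.77, 14.08 and 14.13 in vehicle at 48 h and 14.26, 14.17, 14.39, 14.17 and 14.40 at 100 mM, without overlap. Sod2 rose at 100 mM, by 0.26 ± 0.07 at 24 h (adjusted p = 0.00835) and by 0.26 ± 0.07 at 48 h (adjusted p = 0.00666). At 25 mM the differences were 0.17 ± 0.07 and 0.13 ± 0.07 (adjusted p = 0.0968 and 0.193). Between the doses, the Sod2 difference of 0.09 and 0.13 at the 2 times did not pass (adjusted p of 1.0 and 0.697). Each group at 25 mM held 1 array below the other 4, at 13.92 and 13.99. Without the array at 13.92 the difference at 25 mM and 24 h passed (0.22, adjusted p = 0.0274), as it did without vehicle replicate 3 (0.21, adjusted p = 0.0499). Under quantile normalisation the difference at 100 mM and 48 h was 0.16 and did not pass (adjusted p = 0.0919).

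The 3 members that work in both cytosol and mitochondria were Gpx1, Gpx4 and Gsr. Gpx1, the abundant selenium-dependent glutathione peroxidase of liver, read 15.51, 15.54, 15.60, 15.51 and 15.50 in vehicle at 24 h, against 15.62, 15.70, 15.67, 15.89 and 15.71 at 25 mM and 15.73, 15.68, 15.83, 15.77 and 15.76 at 100 mM. At 48 h its vehicle arrays ran from 15.59 to 15.73 and its dosed arrays from 15.83 to 15.99. Dosed arrays lay above vehicle arrays in all 4 comparisons. Gpx1 rose by 0.19, 0.22, 0.20 and 0.25 (each ± 0.04), with adjusted p of 0.00343, 0.000638, 0.00104 and 8.61e-05.

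Gpx4, the glutathione peroxidase that reduces lipid hydroperoxides in membranes, has 2 probe sets of its own, which disagreed. The bright one rose by 0.17, 0.21, 0.22 and 0.22 (each ± 0.05), with adjusted p from 0.00144 to 0.0202. Its vehicle arrays ran from 15.40 to 15.62 at 24 h and its dosed arrays from 15.63 to 15.83. At 48 h the highest vehicle array (15.89) reached the dosed range of 15.88 to 16.07. The dim one, with group means of 8.92 to 9.38, differed by -0.11, -0.06, -0.37 and -0.45 (each ± 0.24) and was not called. Averaging both gave -0.08 and -0.12 at 48 h, so the direction for Gpx4 rests on the bright probe set.

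Gsr, glutathione reductase, which returns oxidised glutathione to its reduced form with NADPH, read 13.72, 13.59, 13.43, 13.65 and 13.81 in vehicle at 48 h. The arrays at 25 mM read 13.90, 13.89, 14.01, 13.93 and 13.94, all above vehicle, and those at 100 mM 13.72, 13.80, 13.84, 13.93 and 14.08, which overlapped it. Gsr rose by 0.30 ± 0.09 at 25 mM and 48 h (adjusted p = 0.0174), a call lost without vehicle replicate 3. The differences of 0.13, 0.15 and 0.23 in the other comparisons did not pass (adjusted p = 0.402, 0.318 and 0.0754). With the round of array numbers as a block, the difference at 100 mM and 48 h passed (adjusted p = 0.0106).

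Sod1, the copper and zinc superoxide dismutase and the 1 measured member that works mainly in the cytosol, had the smallest difference of the 9 genes in every comparison. It read 15.96, 16.02, 16.11, 16.01 and 16.05 in vehicle at 24 h and 16.11, 16.09, 15.98, 16.17 and 16.01 at 25 mM, with wide overlap. At 48 h the vehicle arrays read 16.16, 16.09, 16.02, 16.12 and 16.13, those at 25 mM 16.24, 16.16, 16.16, 16.22 and 16.14, and those at 100 mM 16.25, 16.35, 16.16, 16.23 and 16.26. Sod1 rose by 0.15 ± 0.04 at 100 mM and 48 h (adjusted p = 0.0123), a 1.11-fold change that did not pass without the array at 16.35 (0.12, adjusted p = 0.0503). Elsewhere its differences were 0.04, 0.08 and 0.08, each ± 0.04, with adjusted p from 0.206 to 0.585. After quantile normalisation the value at 100 mM and 48 h was 0.04 (adjusted p = 0.388) and that at 25 mM and 24 h was -0.03, so neither a rise nor its direction held under that scaling. The probe set shared by Prdx1, the cytosolic peroxiredoxin, and Prdx1l1 gave similar values, 0.03, 0.05, 0.12 and 0.16 (each ± 0.04), and was called at 100 mM and 48 h (adjusted p = 0.00951).

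**Figure D3:**
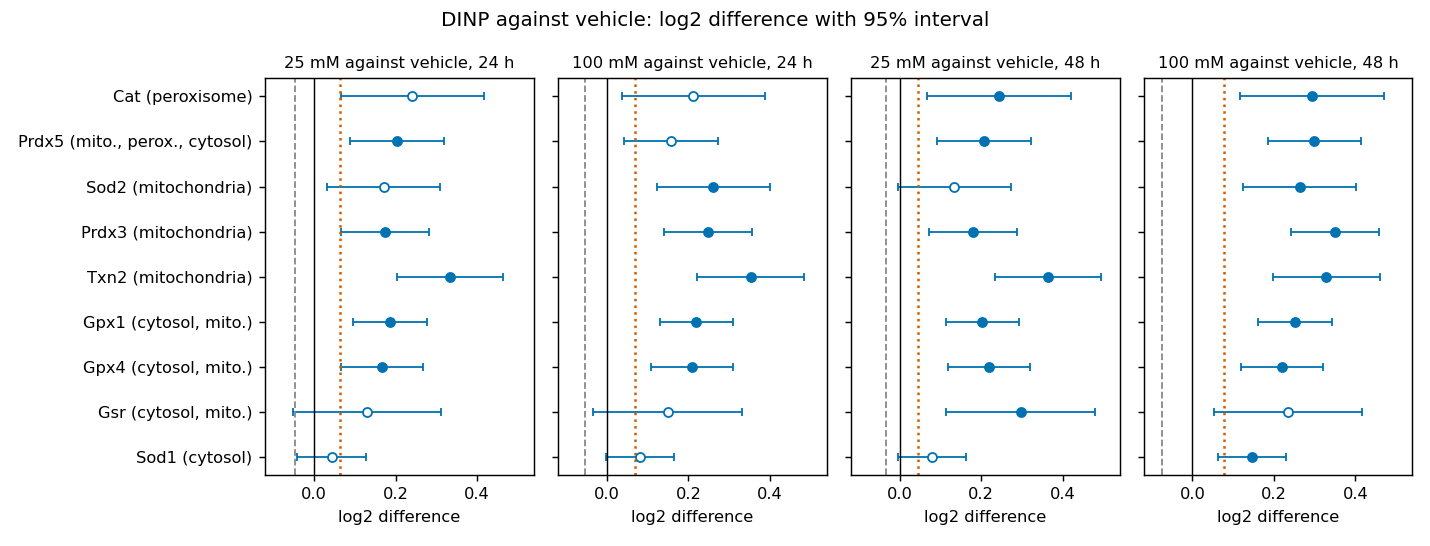
Log2 difference between DINP and vehicle (horizontal axis) with its 95% interval for the 9 genes, ordered by compartment, in the 4 comparisons. Filled points passed an adjusted p of 0.05 and open points did not. The dashed line marks the median of all tested probe sets, between -0.07 and -0.03, and the dotted line that of bright probe sets, between 0.04 and 0.08.

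By compartment, the 3 mitochondrial genes were called 2, 3, 2 and 3 times of 3 in the 4 comparisons, with median differences of 0.17, 0.26, 0.18 and 0.33. The 3 genes of cytosol and mitochondria were called 2, 2, 3 and 2 times, with medians of 0.17, 0.21, 0.22 and 0.23. Of all bright probe sets, 23.1% to 29.8% were called higher in these comparisons. Differences between compartments were not tested beyond the pairs with catalase given above.

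No difference between the doses, or between the times in the effect of a dose, passed for any of these genes. Between 100 and 25 mM, 0 of 9 genes were called by limma at 24 h (0.0107% of all probe sets in either direction) and 0 of 9 at 48 h (0.00537%). Of these 18 tests, 1 had an unadjusted p under 0.05, that of Prdx3 at 48 h, and the smallest adjusted p was 0.491. The difference of a dose's effect between 48 and 24 h was called for 0 of 9 genes at 25 mM (0.242% of all) and at 100 mM (0.0644% of all), with 0 of these tests at an unadjusted p under 0.05. For catalase the interval of the difference between doses was -0.20 to 0.15 at 24 h and -0.13 to 0.23 at 48 h.

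Some members differed between 24 and 48 h without the compound. Time in culture and time in the DMSO vehicle cannot be told apart here. In vehicle cultures Gsr rose by 0.32 ± 0.09 (adjusted p = 0.0129), Gpx4 by 0.21 ± 0.05 (adjusted p = 0.0039) and Gpx1 by 0.15 ± 0.04 (adjusted p = 0.0204) from 24 to 48 h. These 3 of 9 genes compare with 6.67% of all probe sets and 17.8% of bright ones called higher, and no member fell (7.68% of all). The 24 and 48 h arrays overlapped for all 9 genes, while 4.75% of all probe sets had every 48 h array above every 24 h array. For catalase the difference was 0.07 ± 0.09 and for Prdx3 0.01 ± 0.05, neither called. The value of Gsr with time was above each of its 4 differences from vehicle, a gap that was not tested. All 3 calls were lost when each array was centred on its median (adjusted p of 0.0522, 0.0585 and 0.155).

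The scaling of the arrays moved the counts at 48 h. At 100 mM and 48 h, 8 of 9 genes were called as deposited, 9 after centring each array on its median and 4 after quantile normalisation (Prdx5, Prdx3, Txn2 and Gpx1). At 25 mM and 48 h the counts were 7, 2 and 4, where median centring left Txn2 and Gpx4. At 100 mM and 24 h the count was 5 under all 3 scalings, while array weights gave 7. Txn2 passed in all 4 comparisons under all 3 scalings. Quantile normalisation makes the signal distributions of the arrays equal by construction, and the differences of all 9 genes at 48 h were smaller under it. Median centring moved the median of all tested probe sets at 100 mM and 48 h from -0.07 to 0.03.

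**Figure D4:**
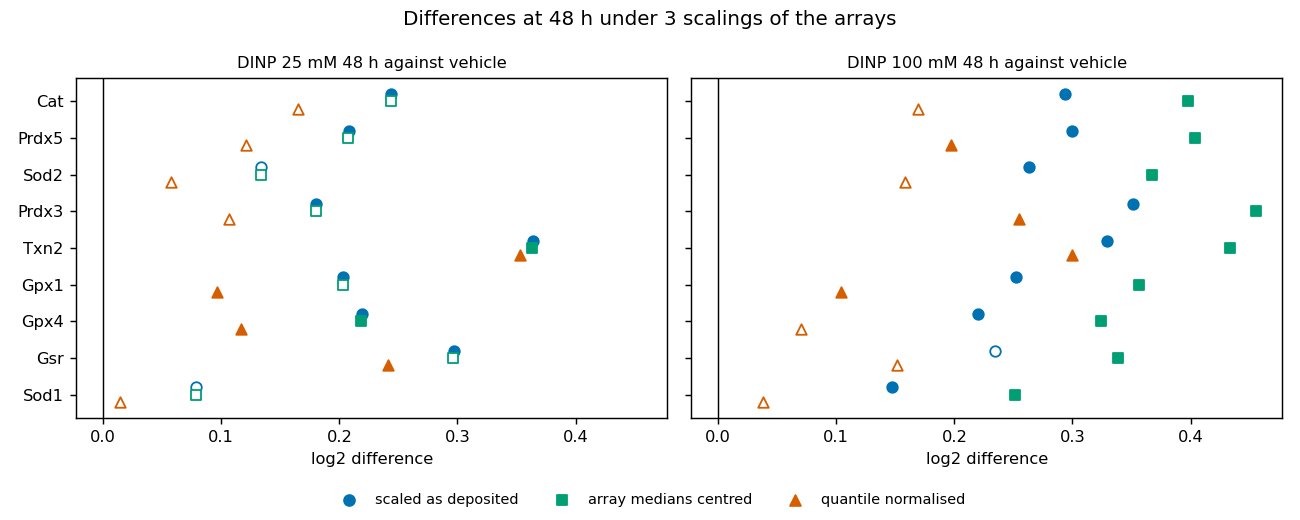
Log2 difference between DINP and vehicle at 48 h (horizontal axis) for the 9 genes under 3 scalings of the arrays: as deposited (circles), each array centred on its median (squares) and quantile normalised (triangles). Filled symbols passed an adjusted p of 0.05. At 100 mM the quantile values run from 0.04 to 0.30 and lie below the deposited ones for every gene.

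Around these enzymes, the genes that make peroxide or supply the reductants moved in different directions. The lists hold textbook members of each process. Of 9 measured peroxide-forming oxidases, 4 fell and 1 rose at 25 mM and 24 h, 5 fell and 1 rose at 100 mM and 24 h, 2 fell and 2 rose at 25 mM and 48 h, and 1 fell and 1 rose at 100 mM and 48 h. Over all 10604 genes, 7.54% to 9.78% were called higher and 7.02% to 12.1% lower. Hao2, a peroxisomal hydroxyacid oxidase, fell by 1.19, 1.01, 1.03 and 0.93, and its relative Hao1 fell by 0.50, 0.39 and 0.35 in the first 3 comparisons. Aox1, the cytosolic aldehyde oxidase, fell by 0.31 and 0.32 at 24 h, and Paox, the peroxisomal polyamine oxidase, by 0.35 and 0.46. Dao, the peroxisomal D-amino acid oxidase, rose by 0.38, 0.41, 0.38 and 0.47. Acox2, which oxidises branched bile acid precursors, fell by 0.30 at 100 mM and 24 h, and Xdh, xanthine dehydrogenase, rose by 0.42 at 25 mM and 48 h. Acox2 also fell by 0.71 with time in vehicle.

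Of 17 other thiol peroxidase and thioredoxin genes, 4 or 5 rose and 1 fell in each comparison, and the list medians were 0.03 to 0.11. Txnip, which binds and inhibits thioredoxin, rose by 0.98, 0.86, 0.83 and 0.81. The glutaredoxins Glrx5 (mitochondrial, 0.49 to 0.56) and Glrx (cytosolic, 0.43 to 0.67) rose in all 4, as did Msra, a methionine sulfoxide reductase (0.23 to 0.32). Glrx3 rose by 0.21 at each dose at 24 h, and Txndc17, a cytosolic thioredoxin-like protein, by 0.19 at 100 mM and 48 h. Srxn1, which reactivates over-oxidised peroxiredoxins, fell by 0.26, 0.32, 0.40 and 0.39. The remaining peroxiredoxins Prdx2, Prdx4 and Prdx6 differed from vehicle by -0.09 to 0.10 and were not called.

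Of 12 genes of glutathione synthesis and other glutathione enzymes, 1 or 2 rose and 1 or 2 fell, and the list medians lay between -0.07 and -0.02. Slc7a11, the cystine importer that feeds glutathione synthesis, fell by 0.39, 0.50, 0.82 and 0.76, and Gclc, the catalytic subunit of the first synthetic enzyme, fell by 0.30 and 0.38 at 24 h. Gpx7 fell by 0.43 at 25 mM and 48 h. Slc25a39, which carries glutathione into mitochondria, rose by 0.17, 0.22, 0.32 and 0.23, and Gstk1, a glutathione transferase of mitochondria and peroxisomes, rose by 0.21 at 25 mM and 24 h and by 0.32 and 0.37 at 48 h.

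Of 5 genes of dismutase partners and metal supply, 2 or 3 rose and none fell. Ccs, which loads copper into Sod1, rose by 0.31, 0.31, 0.27 and 0.24, and Slc31a1, the copper importer, by 0.36, 0.27, 0.38 and 0.28. Slc25a37, a mitochondrial iron importer, rose by 0.48 at 25 mM and 48 h. Of 9 genes of NADPH supply, Me1, malic enzyme, rose by 0.57, 0.58, 0.33 and 0.34, and Idh2, the mitochondrial isocitrate dehydrogenase, fell by 0.45, 0.37, 0.30 and 0.25. Tkt rose at 25 mM and 24 h (0.28) and at 100 mM and 48 h (0.30), where Taldo1 (0.17) and cytosolic Idh1 (0.18) also rose.

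Of 11 listed stress genes of the NRF2 type 8 were tested, and 1 or 2 rose in each comparison, against 7.54% to 9.78% of all genes. This list does not hold Srxn1, Slc7a11 and Gclc, which were counted in the lists above with their falls. Ephx1, microsomal epoxide hydrolase, rose by 0.36, 0.40, 0.34 and 0.37, Cbr1 by 0.17 at 100 mM and 24 h, and Hmox1, heme oxygenase, by 0.24 and 0.38 at 48 h. Ugdh fell by 0.22 at 25 mM and 24 h. Of 6 genes of peroxisome division and protein import, 3, 3, 3 and 4 rose and none fell. Pex11a, which promotes peroxisome division, rose by 1.03, 0.95, 0.86 and 0.87, Pex19 by 0.58, 0.48, 0.50 and 0.53, Pex13, part of the docking complex for imported proteins, by 0.19, 0.18, 0.19 and 0.25, and Pex14 by 0.33 at 100 mM and 48 h. Genes named in these lists that were called but whose dosed and vehicle arrays overlapped were named after their values were seen.

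**Figure D5:**
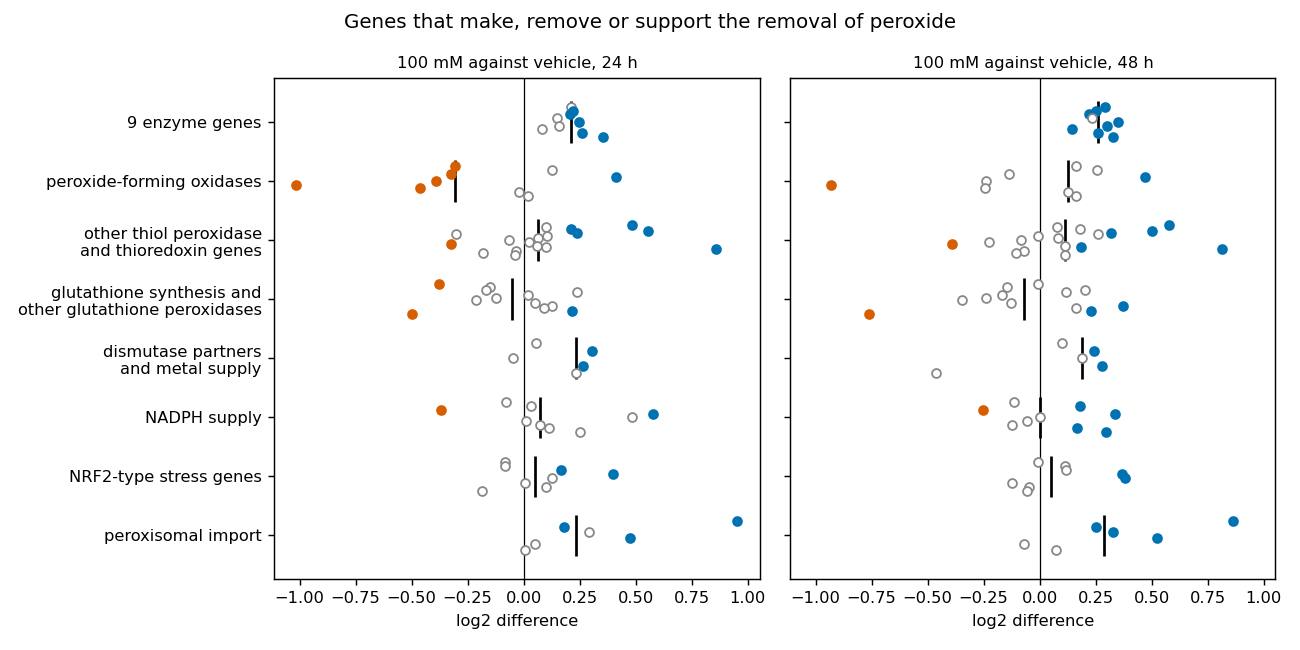
Log2 difference at 100 mM against vehicle (horizontal axis) at 24 and 48 h for each tested gene of the 9 enzyme genes and 7 surrounding lists. Filled blue points were called higher, filled orange points lower and open points were not called; black bars are list medians. The 9 enzyme genes lie together between 0.08 and 0.35, while most of the other lists spread to both sides of 0.

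Across the 30 arrays, the genes whose log2 signals followed catalase most closely by Pearson's r were B2m (0.88), Atp5f1a (0.88), Sdhc (0.87), Atp5mc3 (0.87) and Atp5pb (0.86). Prdx5 followed Psmb4 (0.92), Ndufa3 and Rarres2 most closely, Prdx3 Gys2 (0.81), Mecr and Acadm, and Txn2 Armc6 (0.95), Lactb2 and Acot4. For Gpx1 they were Psmb4 (0.96), Mgst3 and Tpi1, and for Gpx4 Mgst3 (0.96), Ephx1 and Psmb4. Among the members, Gpx1 and Gpx4 were the closest pair at 0.94, and 0.75 after the mean of each of the 6 groups was removed. Catalase and Txn2 had 0.49 over all arrays and -0.32 within groups. These values describe 30 arrays that share doses, times and a common scaling, and carry no test.

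The titles number the arrays from 1 to 30, and each of the 5 rounds of 6 arrays holds 1 array of every group. Within rounds, the catalase array was above the vehicle array of its round in 4 of 5 rounds at either dose at 24 h and in 5 of 5 at either dose at 48 h. Txn2, Prdx3, Prdx5, Gpx1 and Gpx4 were higher in 5 of 5 rounds in all 4 comparisons, and Sod1 in 3 of 5 at 25 mM and 24 h. Counts by round were not made over all probe sets, so how unusual these are cannot be judged. Of bright probe sets, 58.8% to 66.0% had a mean difference above 0. With the round as a block, catalase at 25 mM and 24 h passed at the same difference of 0.24 (adjusted p = 0.0491).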

How the data were processed

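Labelled cRNA was read on Affymetrix rat arrays, per the labels' protocols. The authors deposited 1 linear intensity for each probe set on each array. The submitters' processing notes name MAS5, whose version is not given in the sources used here. The 2% trimmed mean of the deposited intensities over all 31099 probe sets, controls included, lay between 1500.65 and 1500.76 on every array. From these, log2(signal + 16) was computed, which understates changes of dim genes. The 57 control probe sets were dropped and a probe set entered the test if its mean log2 reached the 40th percentile (7.956). Symbols came from the platform annotation, updated through Entrez IDs of assembly GRCr8 for 20758 of the 20826 probe sets with 1 symbol. The fit was limma 3.58.1 in R 4.3.3, of 6 groups with 24 residual degrees of freedom, a variance trend and Benjamini-Hochberg adjustment within each comparison at 0.05, tested on simulated data. A gene with several probe sets is shown by its brightest. Pairs of genes were compared by exact two-sided permutation tests. Alternatives were the added constant, scaling, filter, variance trend, array weights, rounds, groups in the fit, probe set rule and leaving out each array. Named genes were all members, context genes called with dosed and vehicle arrays apart (at most 4 per list and comparison), and the closest genes by correlation. Replicates were numbered in sample order. The members and lists were chosen with earlier results of these data known. The comparator Ehhadh was chosen after seeing the data, in place of a planned one not analysed here. Precision is limited by having 5 arrays per group, and scanner saturation was not tested.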

Additional observations from a re-analysis of the deposited data

Results flagged for a closer look

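In 4 of 66 groups of 5 arrays, 1 array of a member lay apart from the other 4 by Dixon's criterion at 95%, which chance alone flags in about 1 of 20 groups. For Prdx5, replicate 2 at 100 mM and 48 h read 15.4 on the log2 scale, against 15.23 to 15.27 in the others, and the rise kept its call without it. For Sod2, replicate 1 at 25 mM and 24 h read 13.92 against 14.14 to 14.21, and without it the difference from vehicle passed (0.22). For the same gene, replicate 2 at 25 mM and 48 h read 13.99 against 14.18 to 14.21. For Txn2, replicate 4 of vehicle at 24 h read 12.91 against 13.01 to 13.02.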

How the results depend on the processing

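Of 900 values of a gene under an alternative, 4 lay below 0. Many of these could not change direction. The filter, the variance trend, the groups in the fit and the round as a block left the differences as they were. Analyses without 1 array share nearly all their arrays. The number of genes called moved by over 1.5 times under median centring (0 for time in vehicle, 2 at 25 mM and 48 h), quantile normalisation (2 and 4 at 25 mM at 24 and 48 h, 4 at 100 mM and 48 h) and with no variance trend (3 at 25 mM and 24 h). Catalase at 24 h passed at 25 mM under median centring (0.32), array weights (0.26) and the round of array numbers as a block (0.24), and at 100 mM under array weights (0.25). At 48 h it no longer passed at 25 mM under median centring (0.24), quantile normalisation (0.16), no filter (0.24), no variance trend (0.24) or array weights (0.26), or at 100 mM under quantile normalisation (0.17). The cause was not tested. Averaging both probe sets of Gpx4 gave -0.0776 and -0.117 at 25 and 100 mM at 48 h.

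Without 1 array at a time, catalase ranged from 0.17 to 0.31 and 0.14 to 0.29 at 25 and 100 mM at 24 h, from 0.21 to 0.29 and 0.26 to 0.34 at 48 h, and from -0.00222 to 0.143 for time in vehicle. The counts ranged from 3 to 6, 5 to 7, 5 to 7 and 7 to 9, and from 1 to 3 for time in vehicle. Txn2 kept its calls in all 4 comparisons with vehicle in every analysis. The 108 alternative values of the gene pairs changed no side of the threshold, which these exact tests could hardly reach with 5 against 5 arrays. No paired analysis was possible because the labels give no replicate numbers, and the round of array numbers was used as a block instead.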

Other observations

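In vehicle cultures from 24 to 48 h, several genes around the 9 enzymes changed. Gpx2, a glutathione peroxidase of epithelia, rose by 0.79, Pgd, an NADPH-producing enzyme of the pentose phosphate pathway, by 0.51, Abcc3, a conjugate exporter, by 0.54, Gss, which completes glutathione synthesis, by 0.30, and Slc25a39 by 0.30. The cytosolic peroxiredoxins Prdx2 and Prdx6 rose by 0.27 and 0.18, and Prdx4 of the secretory pathway fell by 0.15. In the same comparison Slc7a11 fell by 0.43, Slc31a1 by 0.38, Txnip by 0.29 and Gstk1 by 0.21, so that the direction of Txnip, Slc31a1 and Gstk1 with time was opposite to that with DINP.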
